A study of Gasterosteus aculeatus with 36 samples.

Results

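The 2 latest ages in the study of threespine stickleback (*Gasterosteus aculeatus*) are larvae at 8 and 4 days post hatching (dph), and the transcriptome of the whole larva was compared between them over all genes. Members were the 12 libraries whose labels give one of these ages, of 36 libraries in all: 3 females and 3 males at 8 dph, and 3 females and 3 males at 4 dph. Each library holds the polyadenylated RNA of 1 whole, untreated, wild-type larva. The study's fish were laboratory-reared descendants of marine fish caught at Port Gardner Bay in Washington and on the Pacific coast of Japan, sexed by a sex-linked marker (*idh*) and kept in dilute salt water, and fry were fed brine shrimp. The labels give neither the population or clutch of a larva, nor the hour of sampling, nor the time since its last meal, so that each of these cannot be told apart from age where it differed between the ages. Each larva was sampled once.

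A stickleback hatches with a yolk sac and a skeleton of cartilage, and in the following days it exhausts the yolk, begins to feed, inflates the swim bladder and lays down bone on and around the cartilage. The eye of a teleost larva works first with cones, and rods, the photoreceptors of dim light, are added later. Red cells, gut, liver, muscle and myelin are all being built while the animal grows. Whole-animal RNA sums these organs, so that fewer cells of a type and less RNA per cell cannot be told apart. Levels are in CPM, the reads of a gene per 1e6 counted reads of the larva, after the total of each larva was scaled by the TMM method.

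Counted reads per larva, in units of 1e6 reads, were 13.9, 26.97 and 30.8 (lowest, median and highest of 6) at 8 dph and 16.4, 20.8 and 33.6 at 4 dph (exact two-sided permutation test, p = 0.727). Of 25258 genes in the table, 24920 had a read in these larvae and 21483 passed the filter on low counts. Defining genes of 12 organs, 31 in all, were detected in every larva, with the germ line gene *ddx4* lowest at 5 to 48 reads per larva. Sex took 41.9% of the variance of log2(CPM + 1) and age 24.4%, and no other arrangement of the ages within the sexes gave age a larger share (one-sided exact permutation test over 400 arrangements, p = 0.005, which is the least they can give). With each gene scaled to unit variance, age took 26.4% and sex 11.3%, so that the order of age and sex turned. For each of the 12 larvae, the nearest other larva was of the same age and sex. The first principal component separated the sexes and the second, with 24.6% of the variance, separated the ages. All tested genes entered these shares and components, those of the sex chromosomes included. In the paper's own components over all stages, autosomal genes grouped by stage and not by sex. Only sex chromosome genes clearly separated the sexes there. Shares without the sex chromosomes were not computed here.

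**Figure D1:**
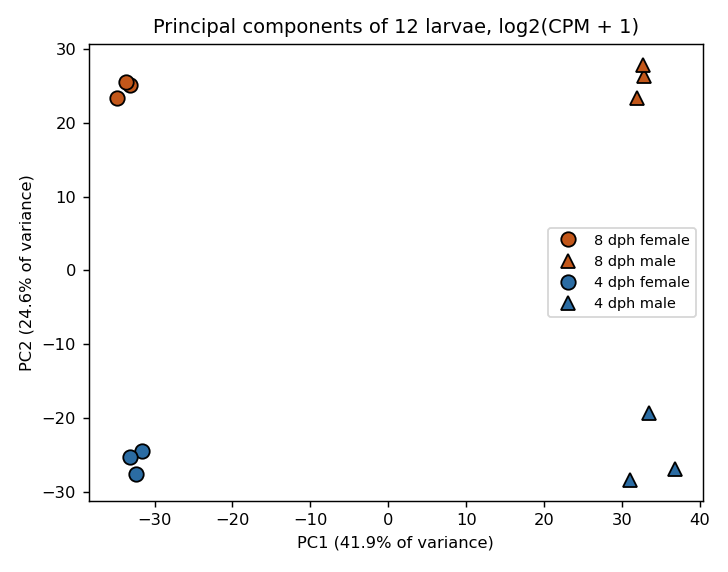
First and second principal components (41.9% and 24.6% of the variance) of log2(CPM + 1) over 21483 genes, with 1 point per larva. All 6 larvae at 8 dph lie on one side of the second component and all 6 at 4 dph on the other, in females (circles) and males (triangles).

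Between 4 and 8 dph, 2583 genes were higher at 8 dph and 2646 were lower (edgeR's quasi-likelihood test with sex as covariate, Benjamini-Hochberg adjusted p under 0.05), which is 12% and 12.3% of the tested genes. The changes were mostly small: the called genes had a median log2 fold change of 0.50 where higher and of -0.41 where lower, and 524 genes were both called and at least 2-fold higher, against 290 that were at least 2-fold lower (2.44% and 1.35%). In 2159 genes (10%) the 6 larvae of one age all lay above the 6 of the other, in 1093 with 8 dph above (5.09%) and in 1066 with 8 dph below (4.96%). The median log2 fold change over all tested genes was 0.00 under each of the scalings tried. In a fit of all 36 libraries, the share of genes called was 64.3% for stage 20 against stage 17, 58.3% for stage 23 against stage 20, 58.4% for 0 dph against stage 23, 48.4% for 4 dph against 0 dph and 17.9% for 8 dph against 4 dph. Neighbouring intervals share libraries, and the days between samplings differ.

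The largest rises among named genes belonged to different organs. Genes with the largest changes were taken only from genes without overlap between the ages, so their lack of overlap is no separate result. *bglapl*, which encodes an osteocalcin-like bone matrix protein, had 74.0, 78.9 and 101.1 CPM at 8 dph, against 6.29, 12.8 and 18.6 CPM at 4 dph (lowest, median and highest of 6 larvae, as below; log2 fold change 2.73 ± 0.17, adjusted p = 3.42e-07, where ± gives the SE). *scpp1*, of the secretory calcium-binding phosphoprotein family that builds mineralized tissue, had the lowest p of any named gene, with 57.3, 63.0 and 72.3 CPM at 8 dph, against 15.8, 17.9 and 22.6 CPM at 4 dph (log2 fold change 1.78 ± 0.07, adjusted p = 4.62e-09). No larva at 8 dph came within the range of 4 dph for either gene. *shbg*, which encodes the sex hormone-binding globulin that the liver secretes, had 18.7, 34.0 and 50.2 CPM at 8 dph, against 1.01, 4.09 and 8.398 CPM at 4 dph (log2 fold change 2.95 ± 0.32, adjusted p = 2.58e-05). *fbxo32*, known in mammals as atrogin-1, a muscle ubiquitin ligase, had 23.5, 30.9 and 89.9 CPM at 8 dph, against 4.58, 5.78 and 8.34 CPM at 4 dph (log2 fold change 2.83 ± 0.34, adjusted p = 5.39e-05). Both were above the whole range of 4 dph in every larva at 8 dph. *socs8*, a suppressor of cytokine signalling, had 10.2, 14.5 and 18.7 CPM at 8 dph, against 0.831, 1.70 and 4.098 CPM at 4 dph (log2 fold change 2.69 ± 0.29, adjusted p = 2.75e-05).

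A pair of genes annotated as CMP-N-acetylneuraminic acid hydroxylase-like, an enzyme that modifies sialic acid, were nearly silent at 4 dph. LOC120817747 had 12.6, 27.5 and 43.6 CPM at 8 dph, against 0.16, 0.34 and 0.534 CPM at 4 dph (log2 fold change 6.33 ± 0.40, adjusted p = 3.42e-07), and LOC120817945 had 5.54, 9.66 and 15.2 CPM at 8 dph, against 0.285, 0.375 and 0.712 CPM at 4 dph (log2 fold change 4.601 ± 0.35, adjusted p = 1.22e-06). In contrast, *gne*, which encodes the enzyme that starts sialic acid synthesis, had 41.8, 46.2 and 49.7 CPM at 8 dph, against 107, 123.3 and 171 CPM at 4 dph (log2 fold change -1.55 ± 0.11, adjusted p = 1.04e-06). Reads that match several copies of a gene were not counted, so that the levels of such copies are uncertain. Components of the inflammasome, the complex that activates inflammatory caspases, were also among the largest rises. The adaptor *pycard* (LOC120811228) had 9.83, 14.2 and 19.0 CPM at 8 dph, against 1.83, 2.68 and 2.90 CPM at 4 dph (log2 fold change 2.43 ± 0.14, adjusted p = 1.60e-07), and a caspase a-like gene, LOC120814012, had 2.94, 8.82 and 17.9 CPM at 8 dph, against 0.178, 0.283 and 0.479 CPM at 4 dph (log2 fold change 5.02 ± 0.51, adjusted p = 1.52e-05). The ages did not overlap for any of these genes, which the choice of genes required. The lowest p of all belonged to LOC120811227, which no table used here names and which was picked after its values were seen, with 100.5, 119 and 127 CPM at 8 dph, against 7.502, 7.85 and 11.1 CPM at 4 dph (log2 fold change 3.81 ± 0.10).

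The largest falls among named genes included genes of liver, metabolism and transport. *leap2*, a liver-expressed antimicrobial peptide that in mammals also blocks the ghrelin receptor, had 4.601, 8.5004 and 12.4 CPM at 8 dph, against 45.6, 58.5 and 76.8 CPM at 4 dph (log2 fold change -2.81 ± 0.21, adjusted p = 1.18e-06). *pck1*, the gatekeeping enzyme of gluconeogenesis, had 6.14, 12.1 and 20.9 CPM at 8 dph, against 50.2, 69.2 and 119 CPM at 4 dph (log2 fold change -2.49 ± 0.32, adjusted p = 9.47e-05). The highest larva at 8 dph stayed below the lowest at 4 dph for both, which the choice of genes required. *leg1.1* (LOC120808544), a secreted protein needed for liver growth in zebrafish, had 265, 382 and 499 CPM at 8 dph, against 951, 1222 and 1325 CPM at 4 dph (log2 fold change -1.65 ± 0.14, adjusted p = 3.56e-06), and *slc43a2b*, an amino acid transporter, had 38.4, 42.2 and 49.2 CPM at 8 dph, against 100.9, 147 and 159 CPM at 4 dph (log2 fold change -1.70 ± 0.09, adjusted p = 9.79e-08). *slc30a8* (LOC120826907), known in mammals as the zinc transporter of the insulin granule, had 2.05, 2.26 and 2.72 CPM at 8 dph, against 7.04, 10.8 and 15.3 CPM at 4 dph (log2 fold change -2.20 ± 0.19, adjusted p = 4.98e-06). The list of endocrine pancreas genes as a whole had 3 higher and 2 lower of 20, shares near those over all tested genes. A DNA damage-inducible transcript 4-like gene (LOC120820464), related to a mammalian inhibitor of mTOR signalling that responds to stress, had 2.62, 3.17 and 4.21 CPM at 8 dph, against 7.66, 9.72 and 14.3 CPM at 4 dph (log2 fold change -1.57 ± 0.15, adjusted p = 1.17e-05). *me2*, a mitochondrial malic enzyme, had 47.2, 56.4 and 61.8 CPM at 8 dph, against 120.4, 142 and 159 CPM at 4 dph (log2 fold change -1.36 ± 0.09, adjusted p = 4.22e-07). *samd9l* is known in mammals as an interferon-induced gene, and its values were uneven, with 24.2, 28.7 and 160.4 CPM at 8 dph, against 161, 276 and 321 CPM at 4 dph (log2 fold change -2.46 ± 0.47, adjusted p = 0.0019). Its log2 fold change was -3.45 in females alone and -1.51 in males alone, where it was not called (adjusted p = 0.156). The male of replicate 1 held the highest value at 8 dph, and without it the log2 fold change of samd9l was -3.19.

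**Figure D2:**
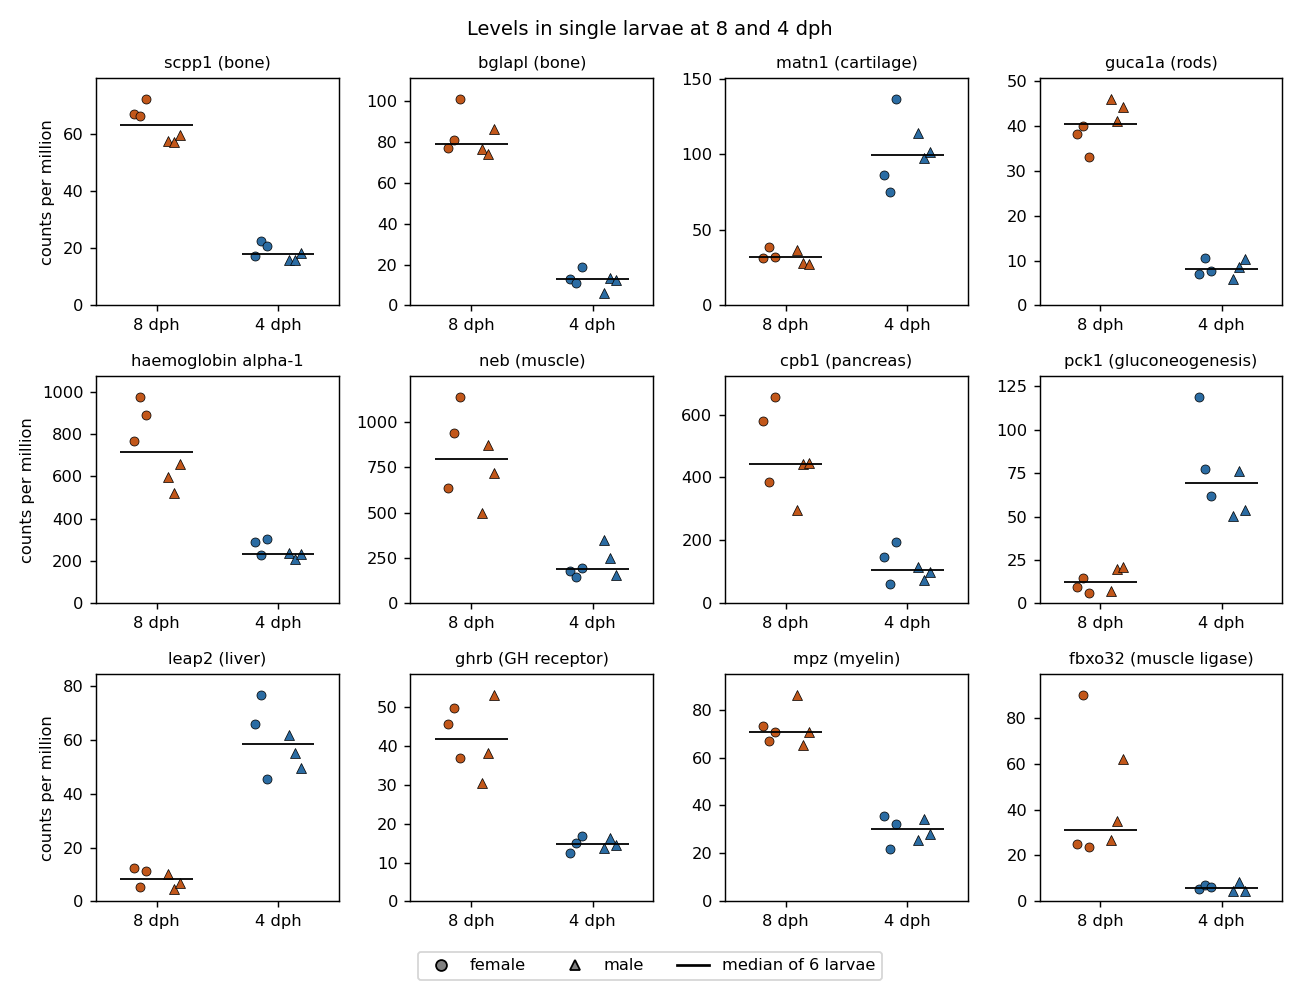
CPM (linear axis from 0) of 12 genes in each larva at 8 and 4 dph, with females as circles, males as triangles and the median of 6 larvae as a line. The label rods beside *guca1a* names its list, which is not limited to rods. Genes named for the largest changes were chosen among those without overlap between the ages. The larvae of the ages do not overlap in any panel, from *scpp1* with 57.3, 63.0 and 72.3 CPM at 8 dph, against 15.8, 17.9 and 22.6 CPM at 4 dph to *leap2* with 4.601, 8.5004 and 12.4 CPM at 8 dph, against 45.6, 58.5 and 76.8 CPM at 4 dph.

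In the eye, most genes of a list of rod phototransduction, the outer segment and the visual cycle rose. The share of cone genes called was near that over all genes. The first list is not limited to rods: it includes visual cycle genes such as *rpe65a* and *rlbp1a*, and it holds no rhodopsin gene. Of 27 tested genes of rod phototransduction, the outer segment and the visual cycle, 17 were higher, 2 were lower and 8 were not called, with a median log2 fold change of 0.82 (all tested genes: 0.00). List counts here and below refer to members that passed the filter on low counts, and counts of 0 to 2 members moved by up to 2 members when single larvae were left out. *guca1a*, which encodes a calcium sensor that restarts cGMP synthesis after light, had 33.1, 40.5 and 46.0 CPM at 8 dph, against 5.81, 8.15 and 10.6 CPM at 4 dph (log2 fold change 2.26 ± 0.13, adjusted p = 1.60e-07). *pde6a*, a subunit of the phosphodiesterase that rhodopsin signalling activates, had 49.8, 58.5 and 68.5 CPM at 8 dph, against 21.4, 25.2 and 31.2 CPM at 4 dph (log2 fold change 1.22 ± 0.09, adjusted p = 1.18e-06), and *gngt1*, the gamma subunit of rod transducin, had 98.2, 123.3 and 149.7 CPM at 8 dph, against 37.3, 52.9 and 73.8 CPM at 4 dph (log2 fold change 1.23 ± 0.15, adjusted p = 6.88e-05). Larvae at 8 dph lay above those at 4 dph for 14 genes of the list, including these 3. *rgra*, an opsin-related gene of supporting cells, fell (-0.48). The summed level of the list was 1894 to 2218 CPM at 8 dph and 1303 to 1717 CPM at 4 dph.

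Among 19 cone genes, 3 were higher, 2 were lower and 14 were not called, with a median log2 fold change of 0.06. The higher count was 5 without 8 dph female replicate 3, and the lower count was 0 without 8 dph female replicate 1, 8 dph female replicate 3, 8 dph male replicate 1 or 4 dph female replicate 2 and 1 without 8 dph female replicate 2, 8 dph male replicate 3, 4 dph female replicate 1, 4 dph female replicate 3, 4 dph male replicate 1, 4 dph male replicate 2 or 4 dph male replicate 3. Cone transducin *gnat2* had a log2 fold change of 0.08 and cone arrestin *arr3a* one of -0.15, neither of which was called. LOC120828464, an entry for the cone phosphodiesterase subunit *pde6hb*, was the abundant exception, with 317, 422 and 431 CPM at 8 dph, against 266, 281 and 308 CPM at 4 dph (log2 fold change 0.50 ± 0.08, adjusted p = 6.33e-04), and the channel subunit *cngb3.2* (LOC120811658) had a log2 fold change of 0.89. A separate tested entry of the cone list has *pde6hb* as its ID, and these values are not those of that entry. In the lens, 8 of 29 crystallin and fibre genes were lower and 0 higher (median -0.22), among them a gamma-crystallin M3-like gene (LOC120834150, -0.65), the beta-crystallin *crybb1l3* (-0.42) and the fibre membrane protein *lim2.1* (-0.43). The lower count was 5 without 8 dph male replicate 1, 8 dph male replicate 3 or 4 dph female replicate 3. Gamma-crystallin copies are nearly alike, and single copies are uncertain for that reason.

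Haemoglobin and other erythroid genes rose in part. Of 21 haemoglobin and erythroid genes, 11 were higher, 0 were lower and 10 were not called, with a median log2 fold change of 0.64. Haemoglobin alpha-1 (LOC120827727) had 524, 713 and 975 CPM at 8 dph, against 209, 235 and 306 CPM at 4 dph (log2 fold change 1.53 ± 0.10, adjusted p = 4.22e-07). A beta-2-like gene, LOC120827720, had 246, 314 and 440.3 CPM at 8 dph, against 103, 122 and 165 CPM at 4 dph (log2 fold change 1.36 ± 0.09, adjusted p = 6.04e-07), and another, LOC120827722, had 139, 179 and 285 CPM at 8 dph, against 17.07, 38.6 and 47.7 CPM at 4 dph (log2 fold change 2.48 ± 0.21, adjusted p = 4.33e-06). The 3 haemoglobin genes of the list summed to 908, 1206 and 1699.8 CPM at 8 dph, against 330.4, 385 and 513 CPM at 4 dph. Members were found by name, so a copy without a name would be missing, and the sum need not be all haemoglobin. *slc4a1a*, which encodes the chloride-bicarbonate exchanger of the red cell membrane, had 53.2, 71.5 and 105 CPM at 8 dph, against 22.97, 30.0 and 34.3 CPM at 4 dph (log2 fold change 1.36 ± 0.14, adjusted p = 1.48e-05). The abundant membrane genes *rhag* and *ank1a* were not called (-0.23 and -0.17). Reads that match several haemoglobin copies were not counted, so that the single levels and their sum are both uncertain. In the preceding interval, 4 dph against 0 dph, 14 erythroid genes were lower and 3 higher, with haemoglobin alpha-1 at a log2 fold change of -3.10 and the beta-2-like genes at -3.13 and -4.03. Both intervals use the larvae of 4 dph.

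In the skeleton, 16 of 31 cartilage genes fell (51.6%) and 12 of 36 bone genes rose (33.3%). Over all tested genes, 12.3% were lower and 12% higher. Of 31 cartilage genes, 2 were higher, 16 were lower and 13 were not called, with a median log2 fold change of -0.31. *matn1*, which encodes the cartilage matrix protein matrilin, had 27.3, 31.8 and 38.5 CPM at 8 dph, against 75.2, 99.4 and 137 CPM at 4 dph (log2 fold change -1.66 ± 0.14, adjusted p = 2.90e-06). *hapln1b* (LOC120831747), which links proteoglycan to hyaluronan, had 5.89, 7.78 and 8.42 CPM at 8 dph, against 16.4, 21.2 and 29.8 CPM at 4 dph (log2 fold change -1.56 ± 0.14, adjusted p = 6.19e-06), and *col9a2*, a chain of the collagen that coats cartilage fibrils, had 122.6, 153 and 162 CPM at 8 dph, against 213, 298 and 328 CPM at 4 dph (log2 fold change -0.94 ± 0.10, adjusted p = 1.59e-05). Every larva at 8 dph was below every larva at 4 dph in all 3. *matn3a* (-1.47) and *ucmab* (-1.57), a cartilage Gla protein, also fell, and *col11a1b* (LOC120816310) rose (0.42).

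Of 36 bone genes, 12 were higher, 3 were lower and 21 were not called (median 0.15). Beside *scpp1* and *bglapl*, the second osteocalcin gene *bglap* (LOC120828365) rose (1.88), as did *fgf23*, known in mammals as the phosphate-regulating hormone of bone, at a low level of 0.956, 1.498 and 2.67 CPM at 8 dph, against 0.0285, 0.365 and 0.574 CPM at 4 dph (log2 fold change 2.47 ± 0.49, adjusted p = 0.00247). The tissue that expressed *fgf23* in these larvae is not known. The abundant matrix genes of bone and skin did not pass the test, with log2 fold changes of 0.17 for *col1a1a* and 0.22 for *col1a2*. *postnb* (-0.36) and *enam* (LOC120825414, -0.50) fell. Of 14 osteoclast genes, 3 were higher, 2 were lower and 9 were not called (median 0.02), so that the list had no common direction. Among the higher, *mmp9*, a matrix protease that neutrophils make too, had 35.0, 41.1 and 59.2 CPM at 8 dph, against 7.18, 12.5 and 14.97 CPM at 4 dph (log2 fold change 1.83 ± 0.17, adjusted p = 6.78e-06), *ctsk*, which encodes the collagen-degrading cathepsin of osteoclasts, had 69.9, 76.4 and 88.9 CPM at 8 dph, against 49.4, 53.2 and 55.7 CPM at 4 dph (log2 fold change 0.54 ± 0.07, adjusted p = 6.62e-05), and *mmp13b* had a log2 fold change of 1.22. *csf1ra* (-0.51), the receptor of macrophage colony-stimulating factor, fell.

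Actinodins, the proteins of the actinotrichia that stiffen the larval fin fold, fell in all 3 listed genes. *and1* had 68.6, 75.7 and 104 CPM at 8 dph, against 119, 132 and 187 CPM at 4 dph (log2 fold change -0.81 ± 0.13, adjusted p = 6.97e-04), *and2* had a log2 fold change of -0.67, and *and3* had 6.95, 8.15 and 9.79 CPM at 8 dph, against 13.8, 21.0 and 28.8 CPM at 4 dph (log2 fold change -1.38 ± 0.14, adjusted p = 1.59e-05). Of the 20 genes of fin and armour patterning, 6 were lower and 0 higher. Across 53 collagen genes, 8 were higher and 11 lower (median 0.07), and the higher count was 5 without 8 dph female replicate 2, 4 dph male replicate 1 or 4 dph male replicate 3, 3 without 8 dph female replicate 3, 8 dph male replicate 2 or 4 dph female replicate 2 and 4 without 4 dph female replicate 3. The lower ones included *col8a1a* (-1.49) and the cartilage genes *col9a1c* (LOC120826284, -1.03) and *col9a1b* (-0.96). *serpinh1b*, the collagen chaperone, had 49.9, 56.1 and 65.6 CPM at 8 dph, against 89.0, 93.3 and 128 CPM at 4 dph (log2 fold change -0.82 ± 0.10, adjusted p = 7.70e-05).

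In muscle, the largest rises of the sarcomere list were those of *cacna1sb*, *neb*, *myom2a* and *ryr1b*. Of 50 sarcomere genes, 15 were higher, 7 were lower and 28 were not called (median 0.19). The lower count was 4 without 4 dph female replicate 2. *neb*, which encodes the thin filament ruler nebulin, had 499.8, 794 and 1135 CPM at 8 dph, against 144, 187 and 351 CPM at 4 dph (log2 fold change 1.92 ± 0.23, adjusted p = 6.58e-05). *cacna1sb*, the voltage sensor of excitation-contraction coupling, had 182, 248 and 321 CPM at 8 dph, against 46.0, 60.0 and 95.7 CPM at 4 dph (log2 fold change 1.99 ± 0.18, adjusted p = 6.46e-06), and its partner *ryr1b*, the calcium release channel, had 176, 257 and 377 CPM at 8 dph, against 66.0, 86.0 and 146 CPM at 4 dph (log2 fold change 1.52 ± 0.21, adjusted p = 1.70e-04). *myom2a*, which crosslinks the centre of the sarcomere, had 397, 479 and 615 CPM at 8 dph, against 135, 149 and 217 CPM at 4 dph (log2 fold change 1.59 ± 0.13, adjusted p = 3.87e-06). The ages were apart in each. The myosin light chain *mylpfa* (0.05) and the muscle creatine kinase *ckma* (0.23) did not pass the test. They were picked as abundant members that were not called, and do not stand for all abundant muscle genes. The actin gene *acta1b* ranged from 11348.5 to 21660.3 CPM at 8 dph and from 8414 to 11780.5 CPM at 4 dph. Of 16 myogenic regulators, 2 were higher and 2 lower (12.5% each, median -0.07), shares near those over all tested genes. *myod1*, the myogenic transcription factor, had 6.71, 12.9 and 17.48 CPM at 8 dph, against 4.71, 5.42 and 6.16 CPM at 4 dph (log2 fold change 1.11 ± 0.16, adjusted p = 2.20e-04), and *mstnb*, which encodes the growth inhibitor myostatin, rose (0.71), while *mymk*, which encodes the myoblast fusion protein, fell (-0.88). *atp1a2a*, a sodium pump subunit, had 203, 261 and 276 CPM at 8 dph, against 87.3, 96.1 and 112 CPM at 4 dph (log2 fold change 1.37 ± 0.09, adjusted p = 4.53e-07), and *ampd1*, the AMP deaminase of muscle, had 329.7, 585 and 678 CPM at 8 dph, against 124, 205 and 302 CPM at 4 dph (log2 fold change 1.36 ± 0.20, adjusted p = 2.68e-04).

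Several of these muscle genes are long, and RNA length can move with RNA quality. By gene spans in another assembly, the 189 longest genes (the top 1 percent of those with a span) had a median log2 fold change of 0.07. Of these, 8.99% were higher and 0.529% lower, against 12% and 12.3% over all tested genes, so that falls were rarer among them. The top quartile of spans had a median of 0.05, against -0.06 in the bottom quartile. Gene spans include introns and can differ from RNA length, so these medians cannot stand for an effect of RNA length. The part of RNA quality was not tested. Of 25 heart genes, 4 were lower, a share near that over all genes, and 0 higher, with *gata4* (-0.94), *tbx20* (-0.58) and the myosin light chain *myl7* among the lower. *myl7* had 12.7, 23.82 and 33.3 CPM at 8 dph, against 30.0, 39.6 and 53.9 CPM at 4 dph (log2 fold change -0.76 ± 0.20, adjusted p = 0.0134), with overlap between the ages.

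Energy metabolism shifted in parts. Of 31 genes of glycolysis and gluconeogenesis, 11 were lower and 1 higher (median -0.15), and the higher count was 2 without 8 dph female replicate 2, 8 dph female replicate 3 or 4 dph female replicate 1 and 3 without 4 dph female replicate 2. Beside *pck1*, the aldolase gene *aldoab* had 334, 378 and 435 CPM at 8 dph, against 753, 870.4 and 1012 CPM at 4 dph (log2 fold change -1.20 ± 0.10, adjusted p = 2.56e-06), and the muscle phosphoglycerate mutase *pgam2* had 63.5, 73.4 and 79.8 CPM at 8 dph, against 152, 204 and 266 CPM at 4 dph (log2 fold change -1.50 ± 0.13, adjusted p = 6.17e-06). Lactate dehydrogenase *ldha* fell too (-0.73), so that falling members came from muscle-type glycolysis as well as from gluconeogenesis. Of 76 nuclear genes of oxidative phosphorylation, 3 were higher, 25 were lower and 48 were not called, each fall being small (median -0.19, largest fall -0.48 in *cox6a1*, LOC120830661). The lower count of this list depended on single larvae and ranged from 18 to 35 when each was left out. The 3 that rose were cytochrome oxidase isoforms, *cox4i2* (LOC120828690, 0.81) and the heart and muscle forms *cox7a1* and *cox6a2*. *cox6a2* (LOC120827565) had 28.1, 33.0 and 54.3 CPM at 8 dph, against 12.3, 14.1 and 16.4 CPM at 4 dph (log2 fold change 1.32 ± 0.14, adjusted p = 2.23e-05), and *cox7a1* (LOC120823980) had 27.7, 35.3 and 39.9 CPM at 8 dph, against 15.6, 18.6 and 21.1 CPM at 4 dph (log2 fold change 0.93 ± 0.10, adjusted p = 1.77e-05).

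Genes of fatty acid oxidation fell in 12 of 28 cases and rose in 1 (median -0.10), with *pdk4*, which spares glucose when fat is burnt (-0.60), and the carnitine carrier *slc25a20* (-0.49) among the lower. *dgat2*, which completes triglyceride synthesis, had 13.2, 22.1 and 35.8 CPM at 8 dph, against 45.7, 62.7 and 76.0 CPM at 4 dph (log2 fold change -1.46 ± 0.19, adjusted p = 1.02e-04). *lpin1a* (1.15), the lipid droplet coat gene *plin2* (1.03) and the desaturase *scdb* (0.77) rose. These genes and *dgat2* belong to a list of 31 fatty acid synthesis genes that moved in both directions. In it, 6 were higher and 5 lower (19.4% and 16.1%, median 0.05), against 12% and 12.3% over all tested genes. Among 20 genes of yolk uptake and lipoprotein export, 4 were lower and 2 higher (20% and 10%, median -0.02). The lower count ranged from 3 to 6 when single larvae were left out. The cathepsin *ctsla*, a lysosomal protease, had 138, 168 and 228 CPM at 8 dph, against 316, 393 and 459 CPM at 4 dph (log2 fold change -1.18 ± 0.13, adjusted p = 2.24e-05), and the low density lipoprotein receptor *ldlra* rose (0.77).

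Most of the 8 listed digestive enzymes of the exocrine pancreas rose, and more listed genes of the intestinal brush border fell than rose. The enzyme list holds no trypsin, chymotrypsin or pancreatic lipase gene. Of 8 pancreatic enzyme genes, 7 were higher and 0 lower (median 1.02), and the ages were apart in 1. Carboxypeptidase *cpb1* had 297, 444 and 656 CPM at 8 dph, against 62.5, 107 and 194 CPM at 4 dph (log2 fold change 2.03 ± 0.23, adjusted p = 3.79e-05), and the ages were apart. The elastase genes *ela2* and *ela2l* varied more: *ela2* had 584, 1027 and 1121 CPM at 8 dph, against 335, 399 and 659.9 CPM at 4 dph (log2 fold change 1.15 ± 0.17, adjusted p = 3.37e-04), and *ela2l* had 876, 1366 and 1658 CPM at 8 dph, against 476, 563 and 928 CPM at 4 dph (log2 fold change 1.14 ± 0.17, adjusted p = 3.17e-04), each with overlap between the ages. Amylase *amy2a* was not called (0.57). Of 31 brush border and nutrient uptake genes, 3 were higher, 10 were lower and 18 were not called (median -0.23). The peptide transporter *slc15a1a* had 22.1, 32.8 and 35.3 CPM at 8 dph, against 45.7, 47.6 and 80.6 CPM at 4 dph (log2 fold change -0.86 ± 0.14, adjusted p = 7.89e-04), and the intestinal fatty acid-binding gene *fabp2* (-0.69) and an apolipoprotein A-IV-like gene (LOC120811099, -0.61) fell, while sucrase-isomaltase *si* (-0.02) did not pass. The intestinal mucin gene *muc2.1* had 2.94, 10.5 and 25.1 CPM at 8 dph, against 1.49, 3.24 and 4.91 CPM at 4 dph (log2 fold change 1.69 ± 0.43, adjusted p = 0.0113), with overlap, and a mucin-5AC-like gene (LOC120807852) had 45.9, 64.2 and 95.5 CPM at 8 dph, against 15.3, 25.2 and 34.2 CPM at 4 dph (log2 fold change 1.49 ± 0.16, adjusted p = 2.39e-05). Other mucin genes of the lists, looked up after these values were seen, were not called, with log2 fold changes of 0.16 for a mucin-5AC gene (LOC120807845) and -0.01 for a mucin-2-like gene (LOC120832113).

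The liver list was mixed. Of 35 plasma protein genes, 16 were higher, 6 were lower and 13 were not called (median 0.26). Higher ones included genes of coagulation and complement. Kininogen *kng1* had 117, 131 and 159 CPM at 8 dph, against 58.9, 69.4 and 81.7 CPM at 4 dph (log2 fold change 0.94 ± 0.08, adjusted p = 6.19e-06), and complement *c5* (LOC120813674, 0.83) and fibrinogen *fga* (LOC120822684, 0.68) rose with it. Lower ones included lipid carriers. An apolipoprotein B-100-like gene, LOC120807767, had 1498, 1616 and 2353 CPM at 8 dph, against 3194, 3963 and 5338 CPM at 4 dph (log2 fold change -1.26 ± 0.14, adjusted p = 2.47e-05), and *apoa2* had 1175, 1392 and 1774 CPM at 8 dph, against 2023, 2464 and 3650.3 CPM at 4 dph (log2 fold change -0.86 ± 0.16, adjusted p = 0.00151). The summed level of the list was 9032 to 11841 CPM at 8 dph and 10839 to 15818 CPM at 4 dph, although more members rose than fell. Breakdown of amino acids was divided too, with 11 of 48 genes higher and 9 lower. Its copies of alanine-glyoxylate aminotransferase moved in opposite directions: *agxta* had 37.0, 51.9 and 59.1 CPM at 8 dph, against 16.9, 22.1 and 23.37 CPM at 4 dph (log2 fold change 1.19 ± 0.09, adjusted p = 1.18e-06), while *agxtb* fell (-0.93). Of 17 purine genes, 6 were higher and 1 lower, with the urate-forming *xdh* (LOC120817414, 0.74), urate oxidase *uox* (0.55) and *urad* (0.69), which act in sequence, all higher.

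**Figure D3:**
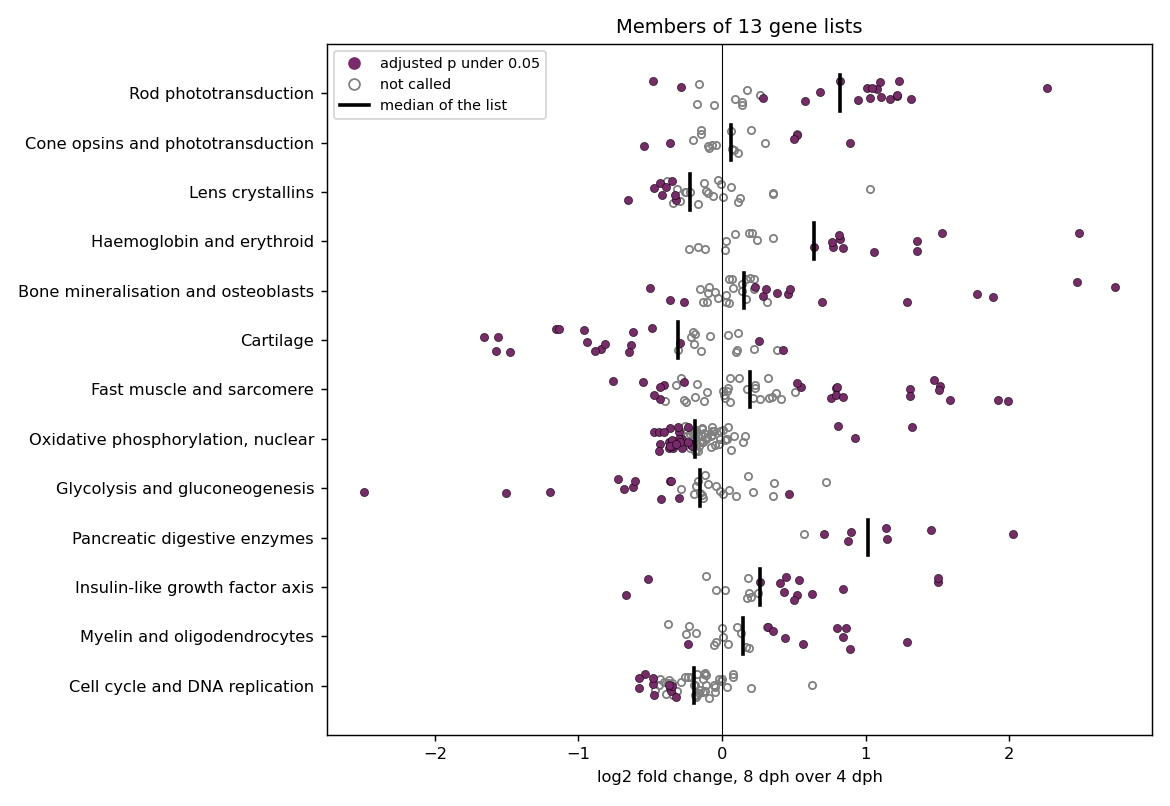
Log2 fold change (8 dph over 4 dph) of each tested member of 13 gene lists, filled where the adjusted p was under 0.05, with the list median as a bar. Genes of the rod phototransduction list, which is not limited to rods, lie mostly to the right of 0 (median 0.82). Cone genes lie around it (median 0.06) and cartilage genes mostly to the left (median -0.31).

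The growth hormone gene, its receptor and 9 other members of the axis rose. Growth hormone from the pituitary acts through its receptor in liver and muscle to induce insulin-like growth factors. Of 21 genes of the axis, 11 were higher, 2 were lower and 8 were not called (median 0.26). The hormone gene *gh1* had 4.90, 7.38 and 8.404 CPM at 8 dph, against 1.39, 2.54 and 3.51 CPM at 4 dph (log2 fold change 1.502 ± 0.21, adjusted p = 2.37e-04). Its receptor gene *ghrb* had 30.5, 41.8 and 53.2 CPM at 8 dph, against 12.5, 14.8 and 16.9 CPM at 4 dph (log2 fold change 1.503 ± 0.13, adjusted p = 4.41e-06), and *socs2*, a feedback inhibitor of the receptor, had 14.2, 16.1 and 17.58 CPM at 8 dph, against 6.65, 8.64 and 11.4 CPM at 4 dph (log2 fold change 0.84 ± 0.13, adjusted p = 3.91e-04). Larvae at 8 dph were above those at 4 dph in all 3. The binding protein gene *igfbp1a* rose (0.63), whereas *igfbp7* (-0.67) and *igfbp5a* (-0.52) fell. Other pituitary hormone genes did not share the rise of *gh1*: prolactin *prl* (-0.20) and somatolactin *smtla* (-0.54) were not called, and the releasing hormone receptor *ghrhrb* fell (-0.77).

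Clock genes rose in 7 of 26 cases and fell in 0 (median 0.25), led by *per1b* with 55.6, 66.7 and 71.6 CPM at 8 dph, against 26.9, 35.1 and 44.7 CPM at 4 dph (log2 fold change 0.90 ± 0.08, adjusted p = 6.10e-06). The higher count was 12 without 4 dph female replicate 1. *rorca* (0.50) and *nr1d2b* (0.46) were other members. Clock transcripts cycle over the day, and the hour of sampling and age cannot be told apart here.

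Most antigen presentation and interferon genes rose. Of 12 antigen presentation genes, 8 were higher and 0 lower (median 0.68). The higher count was 5 without 8 dph male replicate 2 or 4 dph male replicate 1. *cd74a*, which encodes the invariant chain that guides class II molecules, had 21.6, 38.2 and 46.3 CPM at 8 dph, against 13.9, 17.111 and 19.7 CPM at 4 dph (log2 fold change 1.05 ± 0.16, adjusted p = 3.74e-04), and *psmb10*, a subunit of the immunoproteasome that cuts peptides for class I, had 6.11, 7.69 and 9.36 CPM at 8 dph, against 2.397, 3.03 and 4.04 CPM at 4 dph (log2 fold change 1.28 ± 0.15, adjusted p = 4.65e-05). The class I light chain *b2m* (LOC120817797) was not called (0.09). The wider proteasome list had 12 of 46 genes lower and 5 higher, and its higher members included *psmb10* and the interferon-responsive activator *psme2* (0.67). Interferon and antiviral genes were higher in 9 of 14 cases and lower in 0 (median 0.51), with *dhx58*, a sensor of viral RNA (1.26), *usp18* (1.08) and *irf9* (0.97) among them.

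Of 25 neutrophil and macrophage genes, 8 were higher, 1 was lower and 16 were not called. Myeloperoxidase *mpx* had 47.5, 64.9 and 143 CPM at 8 dph, against 35.5, 46.0 and 52.5 CPM at 4 dph (log2 fold change 0.75 ± 0.20, adjusted p = 0.0154), with overlap between the ages, and the general leukocyte gene *lcp1* was not called (0.17). The higher count was 5 without 8 dph female replicate 3, 4 dph female replicate 1, 4 dph male replicate 1 or 4 dph male replicate 2 and 4 without 8 dph male replicate 3. Complement and acute phase genes were higher in 7 of 22 cases, with *c1s.2* (LOC120810412), a protease of the classical pathway, at 21.6, 26.4 and 37.9 CPM at 8 dph, against 7.83, 9.93 and 13.9 CPM at 4 dph (log2 fold change 1.41 ± 0.16, adjusted p = 4.58e-05). Of 27 lymphocyte and thymus genes, 4 were higher, a share near that over all genes, and 0 lower. The T cell kinase *itk* had 1.91, 2.87 and 3.67 CPM at 8 dph, against 1.05, 1.29 and 1.78 CPM at 4 dph (log2 fold change 1.09 ± 0.18, adjusted p = 7.64e-04), and *lck*, another T cell kinase, rose with it (0.58), while *bcl11ba* (0.07), which neurons express too, did not pass.

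In the nervous system, 9 of 24 myelin genes rose (37.5%) and 6 of 27 genes of neural progenitors fell (22.2%). Over all tested genes, 12% were higher and 12.3% lower. Of 24 myelin genes, 9 were higher, 1 was lower and 14 were not called. *mpz*, which encodes the adhesion protein of compact myelin, had 65.0, 70.7 and 86.1 CPM at 8 dph, against 21.7, 30.2 and 35.5 CPM at 4 dph (log2 fold change 1.28 ± 0.12, adjusted p = 6.78e-06), *mbpa*, the myelin basic protein gene, had 206, 235 and 251 CPM at 8 dph, against 97.1, 129 and 147 CPM at 4 dph (log2 fold change 0.86 ± 0.08, adjusted p = 1.16e-05), and *plp1b*, the proteolipid protein gene, had 133, 149.6 and 166 CPM at 8 dph, against 63.3, 84.6 and 97.2 CPM at 4 dph (log2 fold change 0.84 ± 0.10, adjusted p = 5.11e-05). The ages did not overlap in these 3, and the summed level of the list was 1417 to 1608 CPM at 8 dph and 1106 to 1192 CPM at 4 dph. Of 60 synaptic and neuronal genes, 11 were higher and 1 lower (18.3% and 1.67%, median 0.09). The higher count was 4 without 8 dph female replicate 2, 5 without 8 dph male replicate 1, 8 dph male replicate 2 or 4 dph female replicate 2, 7 without 4 dph male replicate 1 and 6 without 4 dph male replicate 3. The axon growth gene *gap43* was the one that fell (-0.32), and the neurofilament gene *nefla* (LOC120832087) rose (0.61). Of 27 neural progenitor genes, 6 were lower and 0 higher (median -0.20), including the Notch ligands *dlb* (-0.52) and *dld* (-0.37) and the stem cell factor *sox3* (-0.40).

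Among proliferation genes, falls were more frequent than rises. Of 52 cell cycle and replication genes, 11 were lower and 0 higher (median -0.19). *cdc20*, which activates the anaphase-promoting complex, had 7.22, 10.8 and 13.97 CPM at 8 dph, against 14.2, 15.3 and 20.04 CPM at 4 dph (log2 fold change -0.58 ± 0.14, adjusted p = 0.00747), and the cyclin gene *ccnb1* fell too (-0.48), whereas the proliferation markers *mki67* (-0.05) and *pcna* (-0.24) were not called. The lower count was 18 without 8 dph female replicate 1, 6 without 8 dph male replicate 2, 8 dph male replicate 3 or 4 dph male replicate 1 and 5 without 4 dph male replicate 3. Pigment genes fell in part. Of 17 melanophore genes, 6 were lower and 1 higher, with *dct*, an enzyme of melanin synthesis, at 25.4, 33.5 and 42.3 CPM at 8 dph, against 46.3, 54.0 and 55.3 CPM at 4 dph (log2 fold change -0.66 ± 0.09, adjusted p = 1.37e-04), while *pmela* (-0.20) and *tyrp1a* (LOC120821622, -0.02) did not pass. Among 26 iridophore and xanthophore genes, 8 were lower and 2 higher. The carotenoid-cleaving *bco1* had 20.75, 28.3 and 32.3 CPM at 8 dph, against 43.8, 51.4 and 68.5 CPM at 4 dph (log2 fold change -0.93 ± 0.13, adjusted p = 1.59e-04), and *gch2* of pteridine synthesis fell (-0.96).

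**Figure D4:**
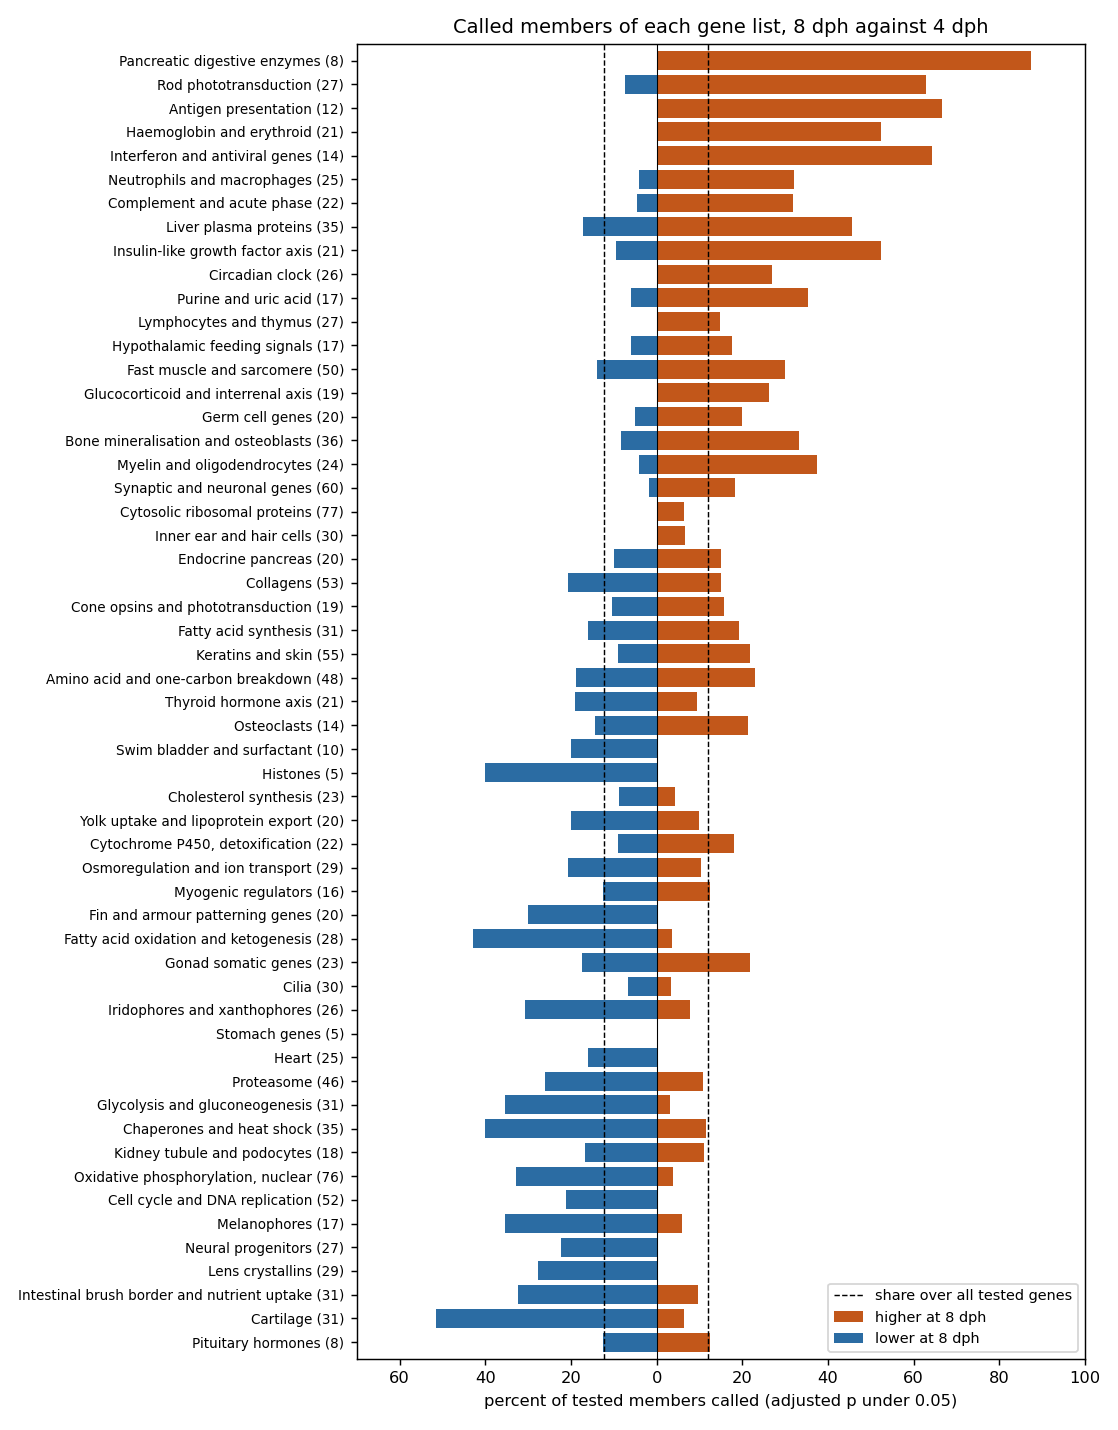
Percent of the tested members of each list (number tested in brackets) that were called higher (right) or lower (left) at 8 dph, in the order of their median log2 fold change. Dashed lines mark the shares over all tested genes, 12% higher and 12.3% lower. Pancreatic enzymes reach the farthest to the right (7 of 8) and cartilage genes the farthest to the left (16 of 31).

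In ion transport, skin and gonad lists, both directions occurred. *slc12a1*, the sodium-potassium-chloride cotransporter of the kidney tubule, had 30.7, 40.2 and 56.6 CPM at 8 dph, against 79.5, 119 and 148 CPM at 4 dph (log2 fold change -1.49 ± 0.15, adjusted p = 1.54e-05), and the tubular chloride channel *clcnk* (-0.84) and the phosphate carrier *slc34a2a* (-0.93) fell with it. The list of kidney tubule and podocyte genes did not fall as a whole: of 18, 2 were higher, 3 were lower and 13 were not called (11.1% higher and 16.7% lower). Of 29 ion transport genes, 3 were higher (1 without 8 dph female replicate 2, 8 dph male replicate 2, 8 dph male replicate 3, 4 dph male replicate 1 or 4 dph male replicate 2) and 6 lower. Among 55 keratin, junction and skin genes, 12 were higher and 5 lower (3 without 8 dph female replicate 1, 4 dph female replicate 1 or 4 dph male replicate 3), and the abundant keratin *krt15* had a log2 fold change of 0.02. Of 23 somatic gonad genes, 5 were higher (3 without 8 dph female replicate 1, 8 dph female replicate 2, 8 dph male replicate 2, 8 dph male replicate 3 or 4 dph female replicate 2 and 2 without 4 dph male replicate 2) and 4 lower. *gsdf*, which encodes a factor of the supporting cells of the fish gonad, had 2.47, 5.80 and 7.54 CPM at 8 dph, against 0.597, 1.439 and 2.08 CPM at 4 dph (log2 fold change 2.01 ± 0.30, adjusted p = 3.70e-04), with a log2 fold change of 2.28 in females alone and 1.74 in males alone. Of 35 chaperone genes, 14 were lower and 4 higher, with the heat shock gene *hsp90aa1.1* (-0.70) among the lower and the stress transcription factor *atf4a* (0.52) among the higher. The lower count was 9 without 8 dph female replicate 2, 4 dph female replicate 2 or 4 dph male replicate 3. Cytosolic ribosomal protein genes had 5 of 77 higher (2 without 8 dph male replicate 2 and 3 without 8 dph male replicate 3 or 4 dph male replicate 2), 0 lower and a median of 0.09.

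Values of the preceding interval, 4 dph against 0 dph, come from a fit of all 36 libraries and are set beside those of 8 dph against 4 dph, which come from the fit of 12 larvae. The comparisons share the larvae of 4 dph, and no test was made between them. Pancreatic enzymes had a median log2 fold change of 7.54 for 4 dph against 0 dph, beside 1.02 for 8 dph against 4 dph. The list of rod, outer segment and visual cycle genes had 1.78 beside 0.82, cone genes 1.28 beside 0.06, and cartilage genes -0.26 beside -0.31. Brush border genes had 1.79 beside -0.23, with 27 of 31 higher at 4 dph than at 0 dph (background 24.0% higher and 24.4% lower). Erythroid genes had -0.76 beside 0.64. Among single genes, *slc15a1a* had 4.48 beside -0.86, *leg1.1* (LOC120808544) had 3.88 beside -1.65, and *slc12a1* had 1.36 beside -1.49, whereas *bglapl* had 6.57 beside 2.73.

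Few genes passed a test for a difference between the sexes in the change with age, with 3 larvae per group. The interaction of age and sex, the log2 change in males minus that in females, passed the threshold in 4 of 21483 genes (0.0186%, edgeR's quasi-likelihood test). At an unadjusted p under 0.05 there were 1016, where 5 percent of the tested genes is 1074. DESeq2 called 24, and edgeR called 7 without 8 dph female replicate 1. The 4 genes, named here because they are few, are *sqor*, which encodes a mitochondrial sulfide oxidase, and LOC120812678, LOC120809390 and LOC120808601, which no table used here names. *sqor* had 66.3, 88.6 and 101.5 CPM in females at 8 dph, against 158, 199 and 187 CPM in females at 4 dph, and 57.7, 59.0 and 46.7 CPM in males at 8 dph, against 31.1, 36.1 and 34.2 CPM in males at 4 dph (interaction of 1.77 on the log2 scale, adjusted p = 0.00764). It was thus lower at 8 dph in females and higher in males. LOC120809390 had 13.1, 13.98 and 18.9 CPM in females at 8 dph, against 3.03, 3.43 and 3.78 CPM at 4 dph, and 0.151, 0.288 and 0 CPM in males at 8 dph, against 2.56, 1.14 and 2.70 CPM at 4 dph (interaction of -5.97 on the log2 scale, adjusted p = 0.00358). LOC120812678 was high in males, with 717, 821 and 799 CPM at 8 dph, against 701, 713 and 782 CPM at 4 dph, and females had 3.74, 3.24 and 1.79 CPM at 8 dph, against 16.4, 16.8 and 14.6 CPM at 4 dph (interaction of 2.58 on the log2 scale, adjusted p = 0.00249). LOC120808601 had 9.38, 9.93 and 15.3 CPM in females at 8 dph, against 18.6, 28.0 and 19.0 CPM at 4 dph, and 3.17, 6.79 and 2.83 CPM in males at 8 dph, against 95.5, 68.4 and 57.4 CPM at 4 dph, a fall in both sexes that was larger in males (interaction of -3.20 on the log2 scale, adjusted p = 0.0217).

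A few genes were nearly off in all larvae of one age but not in most larvae of the other, which was noticed after the values were seen. In 8 genes, all 6 larvae of one age were under 0.5 CPM while the median of the other age was at least 5 CPM. Only LOC120821868 and LOC120814012 exceeded 0.5 CPM in every larva of the higher age, which was 8 dph (lowest 4.75 and 2.94 CPM). In the others, at least 1 larva of the higher age was also under 0.5 CPM. The lowest such larva had between 0 CPM (LOC120821438) and 0.261 CPM (LOC120818197), so these genes varied within an age too. LOC120813512 had 0, 0.0647 and 0.108 CPM at 8 dph, against 0.142, 41.5 and 50.01 CPM at 4 dph, where 5 larvae at 4 dph held 28.9 CPM or more and 1 male held 0.142 CPM, close to the larvae at 8 dph. LOC120830719, which is not one of the 8 and was likewise picked after its values were seen, was a large fall in an unnamed gene, with 24.7, 30.8 and 49.4 CPM at 8 dph, against 261, 402 and 461 CPM at 4 dph (log2 fold change -3.45 ± 0.19). Clutch is not given in the labels, and clutch and age cannot be told apart in such genes.

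**Figure D5:**
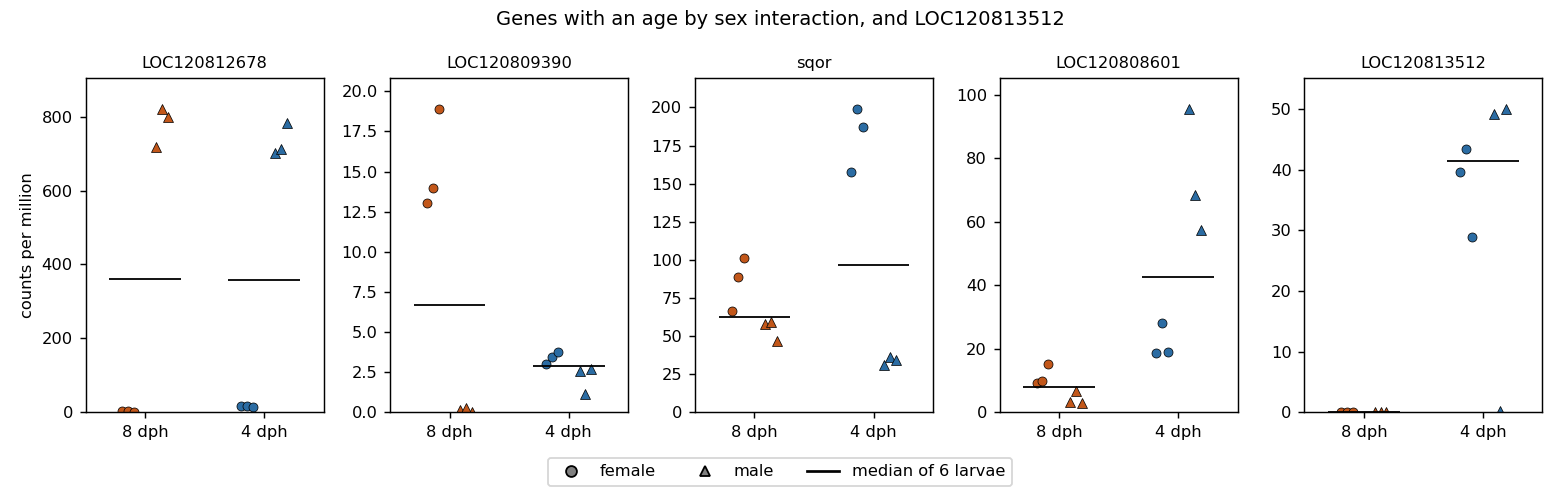
CPM (linear axis from 0) in each larva at 8 and 4 dph of the 4 genes with an age by sex interaction and of LOC120813512, with females as circles, males as triangles and the median of 6 larvae as a line. *sqor* is lower at 8 dph in females and higher in males, and LOC120813512 is near 0 in all larvae at 8 dph and in 1 male at 4 dph.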

How the data were processed

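RNA of 36 whole embryos and larvae was sequenced by the authors as 150 bp paired reads from stranded, poly(A)-selected libraries pooled over both lanes. Per the submitters' processing notes and the methods, reads were trimmed with Trimmomatic 0.39, aligned with HISAT-3N to GAculeatus_UGA_version5, of which uniquely mapped reads were kept, and counted per gene with HTSeq 2.0.2 with strand. The authors deposited whole-number counts per gene, with paired and orphan reads added up. The deposited table of counts divided by size factors was not used. No replicates were pooled, and 0 columns belonged to other series.

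Counts of the 12 larvae of 8 and 4 dph were tested with edgeR 4.0.16 (R 4.3.3, limma 3.58.1): TMM normalization, filterByExpr on the 4 groups of age and sex, glmQLFit and glmQLFTest with sex as covariate, and Benjamini-Hochberg adjustment over 21483 genes, called under 0.05. Fold changes are on the log2 scale, 8 dph over 4 dph, with SE. Levels are CPM scaled by TMM. The fit was tested on simulated data. With 13.9 to 33.6 (in units of 1e6) counted reads per library, low genes rest on few reads, and PCR duplicates make counting error a lower limit. Replicates are separate larvae, possibly siblings. DESeq2 1.42.0 and other settings were alternatives. Summaries used Python 3.11.15.

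Of 25258 IDs, 20861 matched RefSeq's gene table, whose assembly (fGasAcu3.hap1.1) differs from that of the counts, and which served for names and gene spans only, so no coordinates are given. It named 1743 LOC IDs, supplementary tables named 274 more, and 9308 have no name. Named genes are called genes with a mean of at least 5 CPM and no overlap between the ages, the 12 with the greatest change and the 8 with the lowest p in each direction, and up to 4 called genes per direction and, for organ lists, 2 uncalled ones in each of 56 lists, for which overlap and lower levels were allowed. The members and lists were chosen with earlier results of these data known, lists share genes, and 2 members were dropped by name after values had been seen. A list of spiggin genes had 2 members and none passed the filter. Shares for every list with at least 5 tested members are in the plot of lists.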

Additional observations from a re-analysis of the deposited data

Results flagged for a closer look

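Of 178 groups of 6 larvae behind the 89 genes given with single levels, 16 had a larva that stood apart from the other 5 by Dixon's criterion, and chance gives about 1 in 20. The 8 dph male of replicate 1 had 160.4 CPM of *samd9l*, where the next larva of its age had 29.5 CPM, and the same male had 203 CPM of *atp1a2a*, with 254 CPM in the next. The 8 dph female of replicate 3 was highest in *mmp9* (59.2 CPM, next 42.6 CPM), in *fgf23* (2.67 CPM, next 1.58 CPM), in the apolipoprotein B-100-like LOC120807767 (2353 CPM, next 1673 CPM) and was lowest in *pde6hb*, LOC120828464 (317 CPM, next 401 CPM). The 8 dph female of replicate 1 was highest in *cox6a2*, LOC120827565 (54.3 CPM, next 33.9 CPM). At 4 dph, the male of replicate 1 was lowest in *slc43a2b* (100.9 CPM, next 138 CPM), in *mbpa* (97.1 CPM, next 128 CPM) and in *agxta* (16.9 CPM, next 21.2 CPM). The 4 dph male of replicate 3 was highest in *uck2a*, a uridine-cytidine kinase gene (25.8 CPM, next 20.9 CPM), in LOC120811227 (11.1 CPM, next 8.097 CPM), in *cdc20* (20.04 CPM, next 16.3 CPM) and in LOC120820464 (14.3 CPM, next 10.03 CPM). Lowest larvae at 4 dph were the female of replicate 2 in *pycard*, LOC120811228 (1.83 CPM, next 2.58 CPM) and the female of replicate 1 in *dct* (46.3 CPM, next 53.7 CPM).

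The change between ages differed between the sexes in 4 genes by the interaction term. It was 1.77 on the log2 scale for *sqor*, 2.58 for LOC120812678, -5.97 for LOC120809390 and -3.20 for LOC120808601 (male change minus female change, edgeR's quasi-likelihood test, adjusted p = 0.00764, 0.00249, 0.00358 and 0.0217 in the same order).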

How the results depend on the processing

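The main counts were 2583 genes higher and 2646 lower at 8 dph. Within one sex they were 852 and 621 in females and 883 and 826 in males, with fewer larvae in each fit, and with at least a 2-fold change as well they were 524 and 290. Leaving out single larvae gave 2040 to 2525 higher and 2147 to 2786 lower, and 3 to 7 genes with an interaction against 4. DESeq2 gave 24 genes with an interaction. Each of the other alternatives (DESeq2 size factors, library totals without the 50 most abundant genes, no filter, a mean of at least 1 CPM, DESeq2, all 36 libraries in the fit, no sex covariate) kept the higher and lower counts within 1.5 times. The share of variance between ages was 26.4% with genes at unit variance, where that between sexes was 11.3% against 41.9%, and 24.7% to 25.6% without single larvae. Of 285 called genes that the rule or the text named, 52 lost the call without some larva. The sign turned in 2 genes in males alone, which were not called over both sexes: *sqor* (0.68) and LOC120809390 (-3.83).

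The replicate numbers are shared between ages, but the larvae are different animals. Deviations of same-numbered larvae of one sex correlated at -0.04 to 0.20, over 0.1 in 1 of 6 pairs, so the numbers were not taken as pairs. With the replicate block, the number of genes higher at 8 dph was 2766, that of genes lower at 8 dph 2788 and that of genes with an age by sex interaction 5.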
